A study of Mus musculus with 4 samples.

Results

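Keratins are the intermediate filament proteins of epithelia, and the 52 genes described here are all gene symbols made of Krt and a number, out of 23946 symbols in the expression files. Genes of the keratin-associated proteins (Krtap), *Krtdap* and *Krtcap* were not counted among them. The members were chosen by name and not by their values, though with earlier results of these data known. RNA was taken at postnatal day 21 from frontal bone, of neural crest origin, and parietal bone, of mesoderm origin, in wild-type and *Twist1*+/- mice, all on a C57BL/6J background. The mice numbered 12 per strain, and the bones held pericranium, bone plate and dura mater. Whether the mice were pooled, and how many entered each library, is not given in the sources used here. *Twist1*+/- mice carry 1 working copy of *Twist1*, a transcription factor of the skeletal mesenchyme, in every cell. One library per genotype and bone was analysed, which makes 4, so differences could not be set against a spread between replicates and were not tested.

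A keratin filament is built from pairs of a type I (acidic) and a type II (basic) chain, and each epithelium uses its own pair. KRT8 and KRT18 are the pair of simple epithelia such as ducts and glands, often with KRT7 and KRT19. KRT5 and KRT14 are the pair of the basal layer of stratified epithelia, and are replaced by KRT1 and KRT10 as cells of the epidermis move up. KRT6, KRT16 and KRT17 appear in wounded or fast-growing epithelium, and the hair shaft and its inner root sheath have keratins of their own. Osteoblasts and osteocytes build their filaments mainly from vimentin, so keratins are not part of the usual programme of bone.

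Values are FPKM, which are read numbers scaled to transcript length and to the size of the library, so that levels can be set side by side between genes. A gene was counted as different if the ratio of 2 libraries exceeded 3 and the larger value was at least 1 FPKM. *Twist1* itself had 59.0 FPKM in the wild-type and 30.4 FPKM in the *Twist1*+/- frontal library, but 52.5 FPKM in the wild-type and 50.7 FPKM in the other parietal library, which is therefore called the parietal library labelled *Twist1*+/-. All 12 genes of an osteoblast and osteocyte list reached 1 FPKM in at least 1 library. *Col1a1* and *Col1a2* were nevertheless listed at 0 in every library but wild-type parietal bone, so that a 0 in these files cannot be read as absence. Depth per library is unknown. Among genes between 0.005 and 0.1 FPKM, the ratio that gathered most values was 0.973 between the parietal libraries (17.5% of 513 genes within 0.1 on the log2 scale) and 1.27 between the frontal libraries (18.0% of 776 genes), *Twist1*+/- over wild-type, which is a rough estimate of what 1 read was worth in each.

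The keratin genes lie in a pair of clusters. In the mm9 genome, 27 of them, all type I, were annotated on chromosome 11 from 99094075 to 100131185, all on the reverse strand. Another 23 were on chromosome 15 from 101177875 to 101862457, of which 20 were on the reverse strand. *Krt18*, a type I gene, is the outermost gene of this second cluster (101858647 to 101862457, forward strand), and its type II partner *Krt8* (101827142 to 101834773, reverse strand) is its nearest keratin neighbour, with 23873 bases between them. The other 2 members had no position in this annotation.

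Promoter sequence was found for 35 of the 52 keratins in RefSeq (build GRCm38.p6). The 250 bases before the start are shown for the simple pair and the basal pair, which passed 3-fold between the parietal libraries, and for *Krt10*, which did not. Capitals mark matches to CANNTG, the E-box letters that Twist1 and its relatives bind, and to TATAAA, the TATA box; both strands were searched. The windows are chr15:102004343-102004592 for *Krt8* (reverse strand), chr15:102027966-102028215 for *Krt18* (forward), chr15:101712906-101713155 for *Krt5* (reverse), chr11:100206031-100206280 for *Krt14* (reverse) and chr11:99389365-99389614 for *Krt10* (reverse), each written 5′ to 3′ along the gene.
Krt8: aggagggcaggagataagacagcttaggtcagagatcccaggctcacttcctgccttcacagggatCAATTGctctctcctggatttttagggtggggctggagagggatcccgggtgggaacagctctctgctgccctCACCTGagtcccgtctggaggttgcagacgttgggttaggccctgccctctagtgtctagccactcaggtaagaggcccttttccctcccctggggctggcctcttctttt
Krt18: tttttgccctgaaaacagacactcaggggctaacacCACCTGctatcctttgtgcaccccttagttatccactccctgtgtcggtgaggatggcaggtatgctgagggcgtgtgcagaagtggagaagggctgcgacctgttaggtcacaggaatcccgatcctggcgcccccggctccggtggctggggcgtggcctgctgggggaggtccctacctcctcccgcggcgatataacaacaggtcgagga
Krt5: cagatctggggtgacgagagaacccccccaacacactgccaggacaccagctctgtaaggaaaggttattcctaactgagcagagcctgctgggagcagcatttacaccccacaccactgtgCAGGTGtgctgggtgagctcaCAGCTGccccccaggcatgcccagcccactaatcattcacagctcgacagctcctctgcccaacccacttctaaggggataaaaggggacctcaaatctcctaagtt
Krt14: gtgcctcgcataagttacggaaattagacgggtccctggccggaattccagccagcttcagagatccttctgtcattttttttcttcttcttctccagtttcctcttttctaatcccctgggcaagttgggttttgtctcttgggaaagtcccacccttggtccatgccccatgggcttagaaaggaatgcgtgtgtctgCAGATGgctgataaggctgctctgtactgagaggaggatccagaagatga
Krt10: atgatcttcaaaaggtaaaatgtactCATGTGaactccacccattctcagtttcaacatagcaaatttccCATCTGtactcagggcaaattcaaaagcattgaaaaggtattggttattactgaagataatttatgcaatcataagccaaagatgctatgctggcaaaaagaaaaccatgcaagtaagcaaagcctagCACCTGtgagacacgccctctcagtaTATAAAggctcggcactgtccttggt

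*Krt8* and *Krt5* each held 2 matches to CANNTG, *Krt18* and *Krt14* 1 each, and *Krt10* 3. The letters CACCTG occurred 111 bases before the start of *Krt8*, 214 before that of *Krt18* and 52 before that of *Krt10*. At least 1 match was present in 27 of the 35 keratin windows, against 66.2% of 32851 windows of the same length over all genes. TATAAA was present in 17 of the 35, against 12.4% of all windows, and the groups differed in this. All 7 inner root sheath keratins with a window held it, and 6 of 9 hair shaft keratins, while among the 7 windows of keratins that reached 1 FPKM in any library only that of *Krt10* did, 26 bases before the start. GGGCGG, the letters of a GC box, was found in 2 of the 35 windows, those of *Krt7* and *Krt75*, against 32.7% of all windows. Matches that overlap were counted separately, and a match says nothing about binding.

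Keratin RNA was scarce in these bones and was made up mainly of simple keratins. The summed keratin level was 14.9 FPKM in wild-type frontal, 46.7 FPKM in *Twist1*+/- frontal, 13.6 FPKM in wild-type parietal and 43.0 FPKM in the parietal library labelled *Twist1*+/-. These sums were 0.00299%, 0.00898%, 0.00194% and 0.00661% of the FPKM of all genes. Both libraries labelled *Twist1*+/- therefore stood above both wild-type libraries. Keratins at or above 1 FPKM numbered 6, 9, 4 and 10 in the same order, and 10 of the 52 reached that level in at least 1 library: *Krt7*, *Krt8*, *Krt18* and *Krt19* of the simple group, *Krt5*, *Krt14* and *Krt15* of the basal group, *Krt10* of the suprabasal group, and *Krt23* and *Krt80*. Simple keratins held 53.2% of the keratin sum in wild-type frontal, 70.8% in *Twist1*+/- frontal, 60.5% in wild-type parietal and 60.6% in the parietal library labelled *Twist1*+/-. In bulk RNA, fewer cells of a type and less RNA per cell cannot be told apart.

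**Figure D1:**
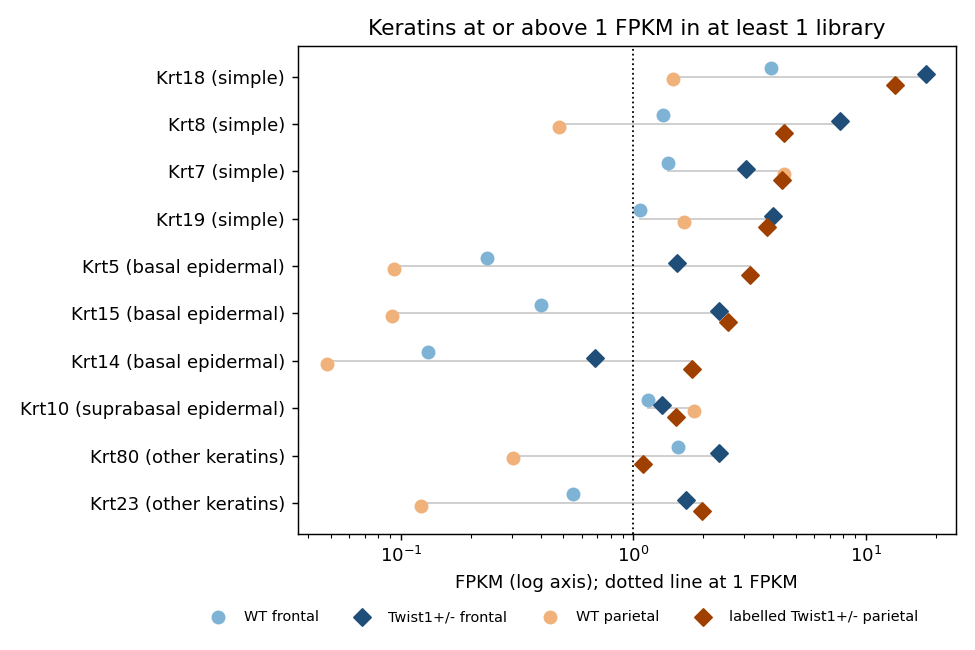
FPKM (log axis) of the 10 keratins that reached 1 FPKM, with 1 point per library, circles for wild-type and diamonds for libraries labelled *Twist1*+/-; small vertical shifts only keep points apart. For the basal keratins both diamonds lie above both circles, with *Krt5* at 1.55 and 3.17 FPKM against 0.236 and 0.0936 FPKM, while the 4 points of *Krt10* lie between 1.15 and 1.83 FPKM.

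*Krt18*, the type I chain of simple epithelia, was the highest keratin of *Twist1*+/- frontal bone, at 18.1 FPKM, and of the parietal library labelled *Twist1*+/-, at 13.4 FPKM. The wild-type values were 3.91 FPKM in frontal and 1.48 FPKM in parietal bone. It was the only keratin to reach 10 FPKM in any library, and it ranked 3929 of 23946 genes in *Twist1*+/- frontal bone against 12370 in wild-type parietal bone. Its partner *Krt8* was at 1.34 FPKM in wild-type frontal, 7.78 FPKM in *Twist1*+/- frontal, 0.481 FPKM in wild-type parietal and 4.46 FPKM in the parietal library labelled *Twist1*+/-. Both genes thus had the same order of libraries, from wild-type parietal over wild-type frontal to labelled parietal and *Twist1*+/- frontal bone.

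The other simple keratins were ordered differently. *Krt7*, found in ducts and in mesothelium, was at 1.41 FPKM in wild-type frontal, 3.06 FPKM in *Twist1*+/- frontal, 4.45 FPKM in wild-type parietal and 4.36 FPKM in the parietal library labelled *Twist1*+/-. It was the highest keratin of wild-type parietal bone, where it stood above *Krt18*. *Krt19*, the smallest keratin, was at 1.06 FPKM in wild-type frontal, 3.98 FPKM in *Twist1*+/- frontal, 1.66 FPKM in wild-type parietal and 3.75 FPKM in the parietal library labelled *Twist1*+/-, so that its 2 lower values were those of wild-type bone. *Krt20*, the keratin of gut and urothelium, did not exceed 0.185 FPKM.

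Among basal keratins, *Krt5* was at 0.236 FPKM in wild-type frontal, 1.55 FPKM in *Twist1*+/- frontal, 0.0936 FPKM in wild-type parietal and 3.17 FPKM in the parietal library labelled *Twist1*+/-. *Krt14*, its partner, was at 0.130, 0.688, 0.0483 and 1.80 FPKM in the same order. *Krt15*, a basal keratin also known from the hair follicle bulge, was at 0.401, 2.34, 0.0913 and 2.55 FPKM. All 3 were lowest in wild-type parietal bone and highest in the parietal library labelled *Twist1*+/-, and in wild-type bone none reached 1 FPKM. The group held 5.17% of the keratin sum in wild-type frontal, 9.81% in *Twist1*+/- frontal, 1.71% in wild-type parietal and 17.5% in the parietal library labelled *Twist1*+/-.

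The suprabasal epidermal group showed no such order. *Krt10* was at 1.15 FPKM in wild-type frontal, 1.33 FPKM in *Twist1*+/- frontal, 1.83 FPKM in wild-type parietal and 1.52 FPKM in the parietal library labelled *Twist1*+/-, a range of 1.58-fold at most. Its partner *Krt1* was at 0.202, 0.338, 0.403 and 0.157 FPKM. *Krt2*, *Krt9* and *Krt77*, of the upper epidermis, the sole skin and the sweat duct, reached at most 0.18 FPKM. The keratins of differentiated epidermis, *Krt10* apart, were therefore below 1 FPKM in every library.

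*Krt23* and *Krt80* were placed in no group. *Krt23* was at 0.551, 1.69, 0.122 and 1.97 FPKM in wild-type frontal, *Twist1*+/- frontal, wild-type parietal and labelled *Twist1*+/- parietal bone. *Krt80* was at 1.55, 2.34, 0.303 and 1.10 FPKM. Both were lowest in wild-type parietal bone.

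The remaining 42 keratins were below 1 FPKM in every library. Of these, 9 were listed at 0 in all 4 libraries, 15 stayed below 0.1 FPKM, and 18 had a highest value from 0.101 FPKM (*Krt27*) to 0.917 FPKM (*Krt222*). Hair shaft keratins made up 15 of the 52, and 7 of them were listed at 0 everywhere; the highest was *Krt36* at 0.523 FPKM in the parietal library labelled *Twist1*+/-. The 8 inner root sheath keratins did not exceed 0.153 FPKM (*Krt72*). In the stress and companion layer group the highest values were those of *Krt17* (0.528 FPKM), *Krt75* (0.510 FPKM) and *Krt6b* (0.427 FPKM), all in the parietal library labelled *Twist1*+/-, and the group summed to 0.518, 0.820, 0.520 and 1.66 FPKM in wild-type frontal, *Twist1*+/- frontal, wild-type parietal and that library. The corneal keratin *Krt12* reached 0.649 FPKM in wild-type frontal bone, and the mucosal keratins *Krt4* and *Krt13* reached 0.374 and 0.221 FPKM.

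**Figure D2:**
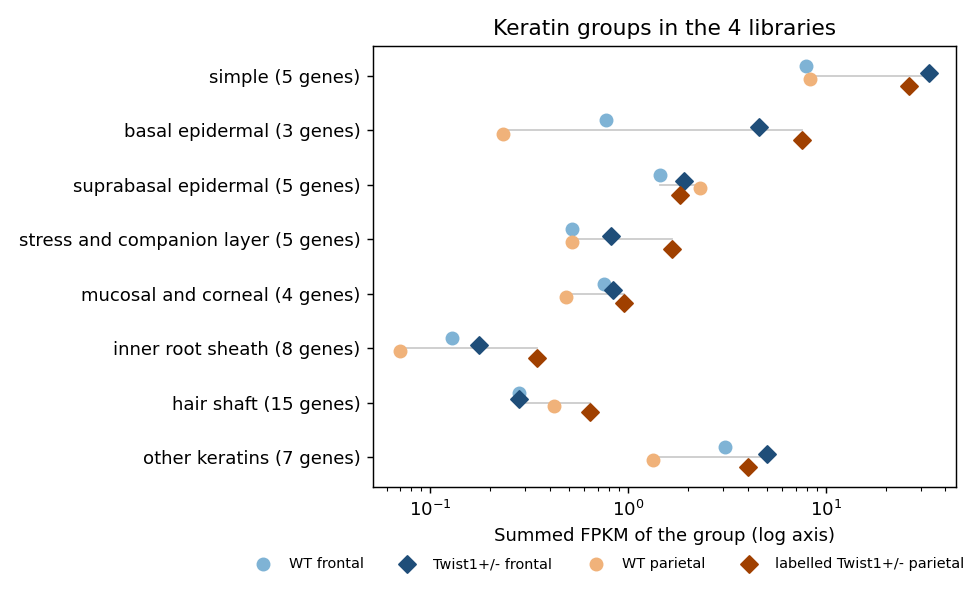
Summed FPKM (log axis) of the 8 keratin groups, with 1 point per library. Simple keratins sum to 33.0 and 26.1 FPKM in the libraries labelled *Twist1*+/- against 7.91 and 8.23 FPKM in wild-type bone, and the root sheath and hair shaft groups stay below 1 FPKM in every library.

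The comparison of *Twist1*+/- with wild-type frontal bone asks what the loss of 1 *Twist1* copy goes with in neural crest bone. In *Twist1*+/- frontal bone 6 of the 9 keratins that reached 1 FPKM in this pair were more than 3-fold higher and 0 were lower, while 3.17% of all genes at that level were higher and 0.725% were lower. The 6 were *Krt5* (6.57-fold), *Krt15* (5.83-fold), *Krt8* (5.78-fold), *Krt18* (4.64-fold), *Krt19* (3.74-fold) and *Krt23* (3.07-fold). *Krt14* was 5.28-fold higher but stayed below 1 FPKM. The values were 2.18-fold higher for *Krt7*, 1.51-fold for *Krt80* and 1.16-fold for *Krt10*, none of which passed the threshold. Simple keratins summed to 7.91 and 33.0 FPKM, a 4.18-fold difference, and basal keratins to 0.767 and 4.58 FPKM, a 5.96-fold difference. The suprabasal sum went from 1.44 to 1.92 FPKM. Over the 43 keratins above 0 in at least 1 library, the median difference in log2(FPKM + 1), on which low genes change less than their ratio, was 0.03 against 0.00 over all such genes.

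Only *Krt18* and *Krt8* of these 6 stayed past 3-fold when 1 FPKM was added to both values before the ratio. The low wild-type values of the others, between 0.236 and 1.06 FPKM, make their ratios less certain.

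The comparison between parietal bones asks the same of mesoderm bone, and its direction rests on the library's label. All 10 named keratins reached 1 FPKM in this pair; 7 were more than 3-fold higher in the parietal library labelled *Twist1*+/- and 0 were lower, beside 5.25% higher and 2.94% lower among all genes. The 7 were *Krt14* (37.2-fold), *Krt5* (33.9-fold), *Krt15* (28.0-fold), *Krt23* (16.1-fold), *Krt8* (9.28-fold), *Krt18* (9.08-fold) and *Krt80* (3.64-fold). *Krt19* was 2.26-fold higher, while *Krt7* and *Krt10* had log2 ratios of -0.03 and -0.26, which were 0.36 and 0.13 after scaling both libraries to the same *Gapdh* value. Basal keratins summed to 0.233 FPKM in wild-type and 7.52 FPKM in the labelled library, a 32.3-fold difference. The simple sum differed 3.17-fold, from 8.23 to 26.1 FPKM, of which *Krt7* made up 4.45 and 4.36 FPKM. The suprabasal sum was 2.31 FPKM in wild-type and 1.81 FPKM in the labelled library. The median difference in log2(FPKM + 1) over 43 keratins was 0.05, against 0.00 over all genes.

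With 1 FPKM added to both values, 4 of the 7 stayed past 3-fold, and *Krt14*, *Krt23* and *Krt80* did not. In this pair the ratio also moved with the GC content of the gene, from a median log2 ratio of -0.58 in the lowest of 20 groups of genes to 0.61 in the highest. The 10 named keratins had a GC content from 51.4% to 57.6%, and subtracting the median of their GC group, a step chosen after seeing the data, left log2 ratios of 4.72 for *Krt14*, 4.71 for *Krt5*, 2.84 for *Krt8* and 2.81 for *Krt18*, and changed no call among them.

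**Figure D3:**
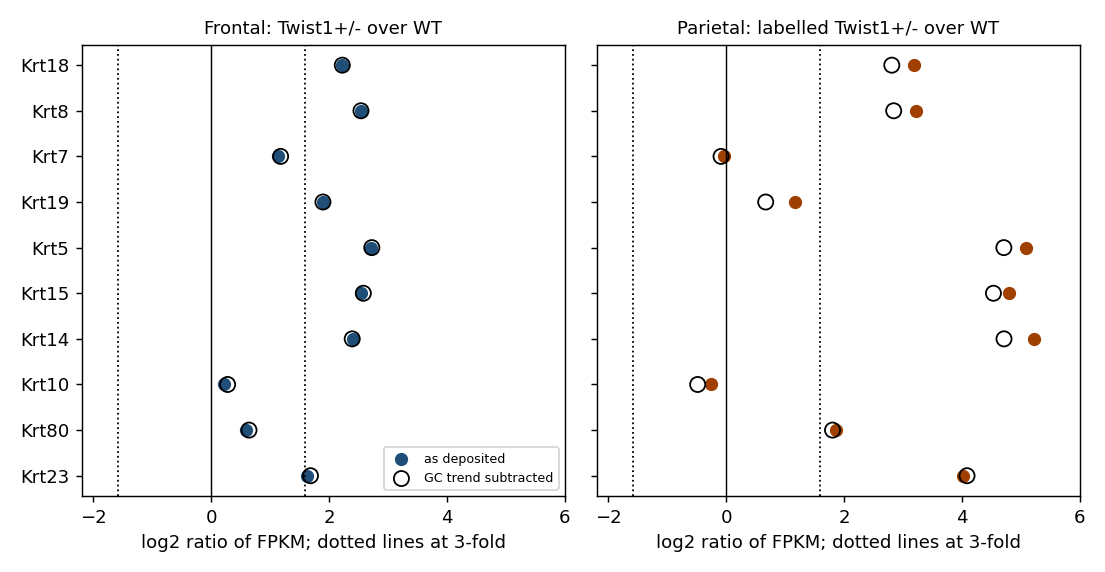
Log2 ratio of FPKM, library labelled *Twist1*+/- over wild-type, for the 10 named keratins in frontal (left) and parietal bone (right); filled points are the deposited values, open circles have the GC trend subtracted, and dotted lines mark 3-fold. *Krt18* and *Krt8* lie at 2.21 and 2.53 in frontal and at 3.18 and 3.21 in parietal bone, and *Krt10* lies near 0 in both.

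Both genotype comparisons use separate libraries. *Krt5*, *Krt8*, *Krt15*, *Krt18* and *Krt23* were more than 3-fold higher in both. The share of all genes higher in both was not computed, so this overlap has nothing to be set against. For the basal genes the fold was larger in parietal bone, and for *Krt19* it was larger in frontal bone, but a difference between bones in the genotype effect could not be tested with 1 library per group.

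The comparisons between bones share their libraries with those between genotypes. Between wild-type bones, 6 keratins reached 1 FPKM. *Krt7* was 3.17-fold higher in parietal bone and *Krt80* was 5.12-fold higher in frontal bone, so that 1 was higher and 1 lower in parietal bone, beside 4.07% higher and 9.2% lower among all genes. *Krt18* and *Krt8* were 2.64-fold and 2.80-fold higher in frontal bone, below the threshold. *Krt10* and *Krt19* were 1.58-fold and 1.56-fold higher in parietal bone. The simple sums were nearly equal, at 7.91 FPKM in frontal and 8.23 FPKM in parietal bone, with *Krt18* as the leading gene in the first and *Krt7* in the second. The median difference over 43 keratins was -0.02, against 0.00 over all genes. The call of *Krt7* was lost after scaling both libraries to the same *Gapdh* value (log2 ratio 1.22), and those of *Krt7* and *Krt80* with 1 FPKM added.

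Between the libraries labelled *Twist1*+/-, 0 of the 10 keratins at or above 1 FPKM were higher and 0 were lower in parietal bone by more than 3-fold, beside 0.846% higher and 3.24% lower among all genes. The largest differences were those of *Krt14*, 2.61-fold higher in the parietal library, and *Krt80*, 2.12-fold higher in the frontal library. *Krt5* was 2.05-fold higher in the parietal library and *Krt8* was 1.74-fold higher in the frontal library. Median differences were 0.00 over 43 keratins and -0.04 over all genes.

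The ratio of partner chains varied little for the simple and the basal pair and more for the others. *Krt18* was 2.91 times as high as *Krt8* in wild-type frontal, 2.33 times in *Twist1*+/- frontal, 3.08 times in wild-type parietal and 3.01 times in the parietal library labelled *Twist1*+/-, although the level of *Krt8* itself ranged from 0.481 to 7.78 FPKM. *Krt14* was 0.553, 0.445, 0.516 and 0.567 times as high as *Krt5* in the same order, over a range of *Krt5* from 0.0936 to 3.17 FPKM. *Krt10* was at 5.71, 3.95, 4.53 and 9.69 times the level of *Krt1*. The wound keratins *Krt16* and *Krt17* together were at 2.18, 1.94, 5.26 and 0.845 times the sum of *Krt6a* and *Krt6b*, all of them below 1 FPKM. The mucosal *Krt13* was at 9.28, 1.24 and 0.520 times *Krt4* in wild-type frontal, *Twist1*+/- frontal and labelled parietal bone and was listed at 0 in wild-type parietal bone. All type I genes together were at 1.76, 1.93, 0.978 and 1.80 times the sum of all type II genes, the low value being that of wild-type parietal bone, in which *Krt7* led.

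Part of the *Krt8* transcript has a copy elsewhere. Of its 1731 windows of 75 bases, the read length, 41.9% occurred without a mismatch in 1 other place of the mm9 genome, on chromosome 7 from 24142113 to 24143830, within the bounds of *Nlrp4e*. Reads from these windows map to more than 1 place, and the authors' counting could have split them, so the level of *Krt8* relative to *Krt18* is uncertain. *Krt14* shared 4.93% of its windows with *Krt16*, and *Krt5* shared 2.69% with *Krt6a*, *Krt6b* and 2 other places. For *Krt7*, *Krt10*, *Krt15*, *Krt18*, *Krt19*, *Krt23* and *Krt80* the share was 0% in both searches.

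**Figure D4:**
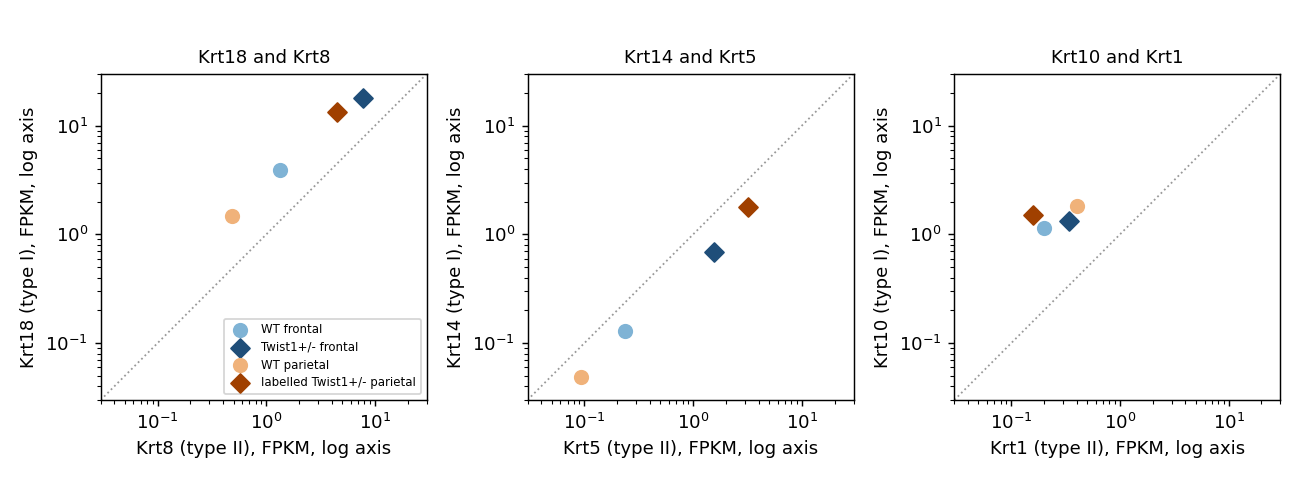
FPKM of a type I keratin against its type II partner (log axes, 1 point per library, dotted line at equal levels). The points of *Krt18* and *Krt8* and of *Krt14* and *Krt5* run parallel to the dotted line over their whole range, and those of *Krt10* and *Krt1* form a cluster above it.

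Other genes of epithelia were read beside the keratins from lists chosen by their known function. Of 14 genes of simple and glandular epithelium, 11 reached 1 FPKM in the frontal pair and 11 in the parietal pair. In *Twist1*+/- frontal bone 7 of them were more than 3-fold higher than in wild-type, beside 3.17% of all genes at that level. Between the parietal libraries 9 were so in the one labelled *Twist1*+/-, beside 5.25% of all genes, and 0 were lower in either pair. The list summed to 30.8 FPKM in wild-type frontal, 84.7 FPKM in *Twist1*+/- frontal, 13.2 FPKM in wild-type parietal and 89.5 FPKM in the parietal library labelled *Twist1*+/-. *Epcam*, the epithelial cell adhesion molecule, was at 3.86, 15.5, 3.46 and 16.6 FPKM in that order. *Cldn3*, a tight junction claudin, was at 2.37, 10.4, 0.312 and 7.52 FPKM, and *Spint2*, an inhibitor of membrane serine proteases, at 16.5, 34.6, 6.96 and 47.8 FPKM. The order of these genes put both libraries labelled *Twist1*+/- above both wild-type libraries, as for *Krt18* and *Krt8*.

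Most genes of the desmosome, a junction that holds keratin filaments, were too low to be counted. Of 13 such genes, 3 reached 1 FPKM, and 0 of these differed by more than 3-fold in any of the 4 comparisons, for which the shares of all genes are given above. The list summed to 14.4, 21.1, 10.6 and 18.0 FPKM, most of it from the plakoglobin gene *Jup*, named after its values were seen (10.8, 13.3, 5.41 and 12.9 FPKM). Without the floor, a step chosen after seeing the data, 7 were more than 3-fold higher and 2 lower between the parietal libraries, and 5 higher and 0 lower in *Twist1*+/- frontal bone. Of 10 genes of basal epidermis and the hemidesmosome, 6 reached 1 FPKM in the parietal pair and 5 in the frontal pair. Between the parietal bones 1 of these was higher, beside 5.25% of all genes, and between the frontal bones 0, beside 3.17%. In either pair 0 were lower. Without the floor, 3 of the 10 were higher between the parietal bones and 0 between the frontal bones. The sums were 30.8, 32.7, 24.6 and 27.7 FPKM. For neither list was the share of all genes without the floor computed, so the counts without it have nothing to be set against.

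Most markers of differentiated skin and hair were low. Among the 15 cornification genes in the files, 6 were listed at 0 in all 4 libraries, and the list summed to 8.21, 14.3, 8.60 and 30.9 FPKM in wild-type frontal, *Twist1*+/- frontal, wild-type parietal and labelled *Twist1*+/- parietal bone. In the parietal pair 3 of the 4 that reached 1 FPKM were higher in the labelled library, beside 5.25% of all genes. Among them was *Krtdap*, a keratinocyte differentiation gene, at 11.4 against 0.157 FPKM. In frontal bone *Krtdap* went the other way, at 0.348 FPKM in *Twist1*+/- against 0.986 FPKM in wild-type. In the frontal pair 1 of 4 was higher, beside 3.17% of all genes. The 52 keratin-associated protein genes of the hair shaft summed to at most 0.754 FPKM, none of them reached 1 FPKM, and 42 were listed at 0 in all 4 libraries. Of 9 further genes of the hair shaft and root sheath, 2 reached 1 FPKM, and the sums were 4.23, 8.31, 9.94 and 7.02 FPKM. Most of each sum came from these 2, *Msx2* (1.52, 1.97, 5.44 and 2.90 FPKM) and *Crym* (1.85, 4.93, 3.37 and 2.89 FPKM). The sums therefore say little about the other genes of this list.

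Lists of other tissues near the calvaria moved with the keratins in part. The 9 nasal secretory genes in the files summed to 331.7 FPKM in wild-type frontal, 1557 FPKM in *Twist1*+/- frontal, 23.3 FPKM in wild-type parietal and 2280 FPKM in the parietal library labelled *Twist1*+/-, the order of libraries of *Krt5* and *Krt14*. *Bpifa1*, a secreted airway protein, was at 107.8, 624.7, 14.7 and 688.1 FPKM, and *Scgb1c1*, a secretoglobin of nasal glands, at 44.5, 210.3, 6.35 and 726.5 FPKM. The 7 enamel organ genes summed to 23.0, 66.9, 4.86 and 124.8 FPKM, again in that order, with the enamel matrix gene *Amelx* at 10.8, 39.6, 0.0760 and 101.2 FPKM. *Odam* and *Amtn* were also highest in the labelled parietal library, but *Ambn*, *Enam*, *Klk4* and *Mmp20* were highest in *Twist1*+/- frontal bone. *Klk4* (1.67 against 0.319 FPKM) and *Mmp20* (2.26 against 0.395 FPKM) were more than 3-fold higher there than in the labelled parietal library. *Dspp*, the dentin gene, was at 0.0771, 37.6 and 3.14 FPKM in wild-type frontal, *Twist1*+/- frontal and labelled *Twist1*+/- parietal bone and was listed at 0 in wild-type parietal bone. Motile cilia genes summed to 18.8, 27.7, 24.9 and 48.1 FPKM, most of it from *Tppp3* (12.5, 15.2, 22.4 and 35.7 FPKM). Each of the other genes of this list was lowest in wild-type parietal bone.

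The sums of muscle and meningeal genes followed other orders. The 6 skeletal muscle genes summed to 75.02, 869.3, 1785 and 1180 FPKM, highest in wild-type parietal bone, where the keratin sum was lowest. The 8 meningeal genes summed to 2052, 395.7, 137.8 and 500.3 FPKM, highest in wild-type frontal bone. Most of the wild-type frontal sum came from *Ptgds*, at 1975, 326.7, 52.8 and 428.5 FPKM. *Slc6a13*, *Slc22a6* and *Aldh1a2* were also highest there. *Foxc1*, *Foxd1* and *Slc47a1* were instead lowest there, and *Cldn11* was highest in wild-type parietal bone. What part RNA of nasal, enamel organ or other epithelium has in the keratin values was not tested.

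**Figure D5:**
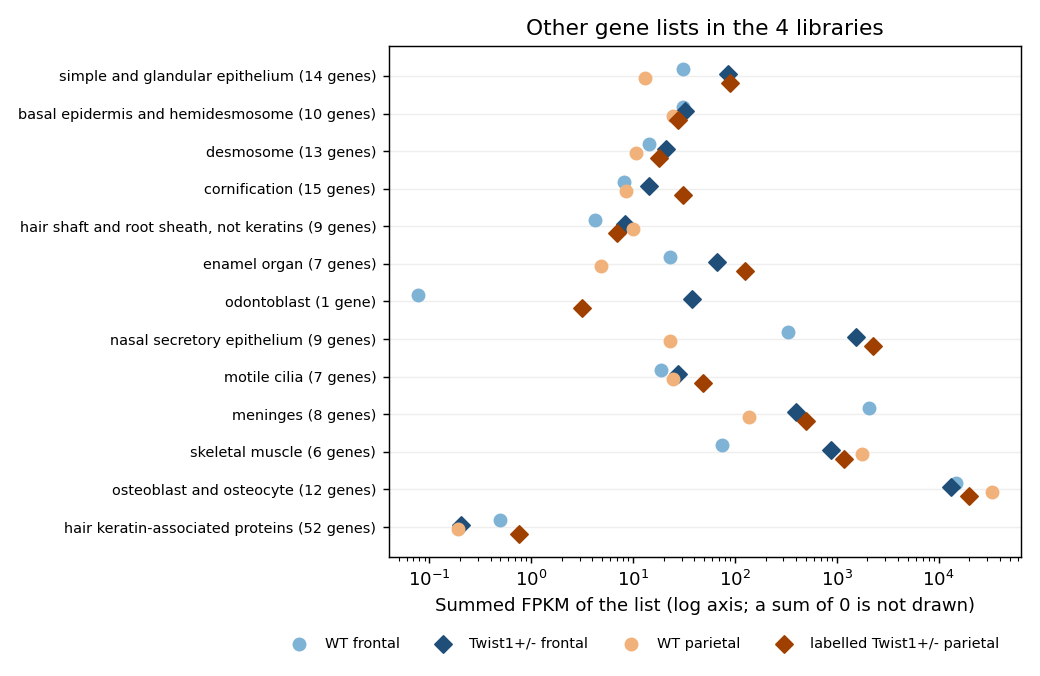
Summed FPKM (log axis) of 13 gene lists, with 1 point per library and a sum of 0 left out. The simple epithelium, desmosome, cornification, enamel organ, odontoblast, nasal secretory and motile cilia lists have both libraries labelled *Twist1*+/- (diamonds) above both wild-type libraries (circles), with nasal sums of 1557 and 2280 FPKM against 331.7 and 23.3 FPKM, and the hair keratin-associated proteins stay below 1 FPKM.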

How the data were processed

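Libraries kept the strand, were prepared from poly(A) RNA and were read from 1 end for 75 bases. The authors aligned the reads to mm9 with STAR 2.4.2a, took the annotation from iGenomes and deposited 1 FPKM value per gene and library from Cuffdiff (Cufflinks 2.2.1, per the labels); the scaling option is not given in the sources used here. FPKM values are not counts, so no count model was used, and depth and counting intervals are unknown.

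Each library was assigned by its sample label. Ratios were formed on FPKM with a 3-fold threshold and a floor of 1 FPKM in the higher library; a value of 0 against at least 1 FPKM was counted as different. Keratins were named with all values when they reached 1 FPKM in a library, and of other lists up to 4 genes that differed and reached 10 FPKM. Further list genes, among them *Jup*, *Tppp3*, *Msx2*, *Crym* and some meningeal and enamel organ genes, were named after their values were seen. The members and lists were chosen with earlier results of these data known. The lists also held genes not in the files, namely *Krt87*, *Krt90*, *Flg*, *Obp1b*, *Plunc* and *Dnahc5*. Relative depth was read within each bone; for other pairs the ratios did not multiply to the same value and were not used. Positions, GC content and lengths came from GENCODE M1 (mm9), which held 50 of the 52 keratins. Windows of 75 bases were searched in the genome with blastn 2.17.0 and as exact matches in protein-coding transcripts. Python 3.11.15 with pandas 2.3.3 was used. The threshold rule was run on simulated data with changes larger than the threshold and a chosen noise. Such a run checks the code only and does not measure how reliable the calls are.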

Additional observations from a re-analysis of the deposited data

Results flagged for a closer look

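*Krt7* and *Krt10* had genotype differences of opposite direction in the bones in the values as deposited. For *Krt7* the log2 ratio of the library labelled *Twist1*+/- to wild-type was 1.12 in frontal and -0.03 in parietal bone, a difference of -1.16. For *Krt10* the ratios were 0.21 and -0.26, a difference of -0.47. After scaling to *Gapdh* all 4 ratios were above 0, at 1.02 and 0.36 for *Krt7* and at 0.11 and 0.13 for *Krt10*, and after scaling to the median ratio the parietal value of *Krt7* was 0.05, so the opposite direction depends on the scaling. None of these ratios passed 3-fold, and the difference between bones was not tested, since there is 1 library per group.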

How the results depend on the processing

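No paired analysis was possible because each group holds 1 library, and no library could be left out for the same reason. Of 200 recomputed log2 ratios of the 10 named keratins, 185 kept their status under the rule of 3-fold and 1 FPKM, but most of these were not called to begin with. The calls that could be lost were 7 between the parietal bones, 6 between the frontal bones, and 1 higher and 1 lower between wild-type bones. Over all settings 13 calls were lost, 9 of them with 1 FPKM added. A call was gained in 2 (*Krt18* and *Krt8* between wild-type bones at -1.84 and -1.93 after scaling to *Gapdh*). The direction turned in 4 of the 200, none of them past 3-fold: *Krt7* between the parietal bones (0.05 after median and 0.36 after *Gapdh* scaling), *Krt10* there (0.13 after *Gapdh* scaling) and *Krt15* between the libraries labelled *Twist1*+/- (-0.07 with the GC trend subtracted, an alternative added after seeing the data). Values below the floor also crossed 3-fold, such as *Krt14* between the frontal bones (0.58 with 1 FPKM added). With 1 FPKM added, 4 keratins were higher between the parietal and 2 between the frontal bones, and 0 differed in either direction between wild-type bones. Without a floor, 18 were higher and 7 lower between the parietal bones, 13 and 6 between the frontal bones, 10 and 12 between the wild-type bones, parietal over frontal, and 9 and 6 between the libraries labelled *Twist1*+/-. The share of all genes was computed only for the rule of 3-fold and 1 FPKM. Counts without a floor, with 1 FPKM added, with a floor of 10 FPKM or with another threshold therefore have no share to be set against. A floor of 10 FPKM left 1, 1, 0 and 0. An 8-fold threshold left 0 higher between the frontal bones and 0 in either direction between wild-type bones, and a 2-fold threshold gave 3 lower in wild-type parietal bone and 2 higher and 1 lower in the parietal of the libraries labelled *Twist1*+/-. The sum of ungrouped keratins passed 3-fold between wild-type bones after scaling to *Gapdh* (-1.64). With a pseudocount of 0.1 FPKM the median difference over keratins was 0.27 between parietal, 0.18 between frontal and -0.13 between wild-type bones, and over keratins at or above 1 FPKM in the pair it was 1.41, 1.04, -0.15 and, between the libraries labelled *Twist1*+/-, 0.10. Keratins at or above 0.1 FPKM numbered 17, 19, 16 and 24 in wild-type frontal, *Twist1*+/- frontal, wild-type parietal and labelled parietal bone, and those at or above 10 FPKM 0, 1, 0 and 1. Changes with the floor and the threshold follow from the rule itself; for the scaling to *Gapdh* the cause was not tested. The number of reads behind low FPKM values is unknown.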

Other observations

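Other intermediate filament genes, a list chosen after the keratins were seen, had another pattern. *Vim*, the vimentin of mesenchymal cells, was at 420.1 FPKM in wild-type frontal, 377.7 FPKM in *Twist1*+/- frontal, 840.2 FPKM in wild-type parietal and 650.0 FPKM in the parietal library labelled *Twist1*+/-, which is 28.3, 8.09, 61.8 and 15.1 times the keratin sum. Of 15 such genes, 0 differed by more than 3-fold between the parietal bones, beside 5.25% higher and 2.94% lower among all genes. Between the frontal bones 2 were higher and 1 was lower in *Twist1*+/- bone, beside 3.17% higher and 0.725% lower among all genes. The higher ones were *Des*, the desmin of muscle (2.66 and 13.8 FPKM), and *Prph*, the peripherin of peripheral neurons (0.199 and 1.36 FPKM), and the lower one was *Gfap*, the filament of astrocytes and other glia (59.1 and 14.2 FPKM). The lamin gene *Lmna* was at 107.8, 91.4, 125.7 and 195.3 FPKM.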
